A study of Mus musculus with 12 samples.

Results

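Transcripts of 10 antioxidant enzyme genes were followed in mouse brown adipose tissue, the fat depot that makes heat by uncoupled respiration. The genes were fixed by name and were Sod1, Sod2, Prdx3, Prdx5, Txn2, Txnrd1, Txnrd2, Gpx1, Gpx3 and Gpx4. All 10 were among the 24452 genes of the deposited table, and all 10 passed the filter on low values that left 12249 genes for testing. RNA-seq was done on 12 libraries of male mice of the strain C57BL/6J Bom, in 4 groups of 3. The ERRαγAd-/- mice carried floxed ERRα and ERRγ alleles, which encode orphan nuclear receptors known to activate oxidative genes, together with a Cre transgene under the adiponectin promoter, so that deletion was directed to adipocytes and the other cells of the depot kept both genes. WT mice were littermates that carried the same floxed alleles and no Cre. One group of each genotype received CL316,243, a β3-adrenergic agonist that mimics the sympathetic signal for heat production, by intraperitoneal injection at 1 mg/kg daily for 10 days at ZT 4 (zeitgeber time, counted from lights on), and the other received PBS. Treatment began at 10 to 11 weeks of age, the labels give an age of 12 weeks, all mice were kept at 30 °C, and tissues were collected 24 h later than the final injection. The groups are called ERRαγAd-/- CL316,243, ERRαγAd-/- PBS, WT CL316,243 and WT PBS. No label says whether the 3 libraries of a group are 3 animals, and the p-values therefore speak only of the spread among these libraries, which may be technical.

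Respiring mitochondria leak electrons to oxygen and form superoxide, which superoxide dismutases convert to hydrogen peroxide. In mitochondria this is done by the manganese enzyme encoded by Sod2, and in the cytosol and intermembrane space by the copper-zinc enzyme encoded by Sod1. Mitochondrial peroxide is reduced by the peroxiredoxins Prdx3 and Prdx5, of which Prdx5 is also found in peroxisomes and the cytosol, and oxidised Prdx3 is restored by mitochondrial thioredoxin (Txn2) and its NADPH-dependent reductase (Txnrd2). Cytosolic thioredoxin has its own reductase, Txnrd1. Glutathione peroxidases use glutathione as the reductant: Gpx1 reduces hydrogen peroxide in the cytosol and mitochondria, Gpx4 reduces lipid hydroperoxides in membranes and protects cells from ferroptosis, and Gpx3 is secreted and is the main glutathione peroxidase of plasma. Txnrd1, Txnrd2, Gpx1, Gpx3 and Gpx4 contain selenocysteine.

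All 10 genes had an entry among RefSeq promoters of the mouse build GRCm38.p6. The 250 bases before the annotated start are shown for Sod2, Prdx3, Prdx5, Txn2 and Txnrd2, called the mitochondrial members here, whose transcripts were lower in ERRαγAd-/- tissue, for Sod1, the cytosolic counterpart of Sod2, and for Gpx3, the member for which the agonist response differed between genotypes. Gpx1 and Gpx4 also have products in mitochondria and are described with the glutathione peroxidases. They lie at chr17:13007589-13007838 on the plus strand (Sod2), chr19:60874539-60874788 on the minus strand (Prdx3), chr19:6910107-6910356 on the minus strand (Prdx5), chr15:77928995-77929244 on the minus strand (Txn2), chr16:18426167-18426416 on the plus strand (Txnrd2), chr16:90220512-90220761 on the plus strand (Sod1) and chr11:54902604-54902853 on the plus strand (Gpx3). Each is written 5′ to 3′ on the strand of its gene, and capitals mark the only match to a searched motif in these stretches.
Sod2: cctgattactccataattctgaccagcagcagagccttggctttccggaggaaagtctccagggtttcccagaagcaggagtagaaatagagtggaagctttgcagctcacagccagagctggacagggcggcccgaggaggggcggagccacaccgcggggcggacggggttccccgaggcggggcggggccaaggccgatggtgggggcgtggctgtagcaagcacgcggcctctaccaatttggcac
Prdx3: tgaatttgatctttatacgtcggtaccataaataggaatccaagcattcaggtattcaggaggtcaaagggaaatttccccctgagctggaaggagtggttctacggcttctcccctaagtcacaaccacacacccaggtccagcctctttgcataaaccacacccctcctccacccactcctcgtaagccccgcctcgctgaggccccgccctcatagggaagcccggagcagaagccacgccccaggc
Prdx5: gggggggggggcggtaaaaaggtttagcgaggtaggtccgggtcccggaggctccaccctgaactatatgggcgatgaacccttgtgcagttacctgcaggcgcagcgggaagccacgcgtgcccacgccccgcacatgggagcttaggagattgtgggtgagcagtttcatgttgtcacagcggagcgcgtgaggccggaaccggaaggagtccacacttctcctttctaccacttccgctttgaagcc
Txn2: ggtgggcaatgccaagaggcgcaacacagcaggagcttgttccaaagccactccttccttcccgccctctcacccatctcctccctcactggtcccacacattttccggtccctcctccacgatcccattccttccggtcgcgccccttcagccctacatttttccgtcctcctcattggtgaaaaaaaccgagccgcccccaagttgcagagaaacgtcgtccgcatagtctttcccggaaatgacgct
Txnrd2: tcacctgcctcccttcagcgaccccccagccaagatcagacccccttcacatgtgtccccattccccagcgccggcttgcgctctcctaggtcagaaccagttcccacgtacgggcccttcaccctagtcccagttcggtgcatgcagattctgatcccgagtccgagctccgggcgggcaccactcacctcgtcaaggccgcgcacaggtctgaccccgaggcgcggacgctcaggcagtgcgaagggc
Sod1: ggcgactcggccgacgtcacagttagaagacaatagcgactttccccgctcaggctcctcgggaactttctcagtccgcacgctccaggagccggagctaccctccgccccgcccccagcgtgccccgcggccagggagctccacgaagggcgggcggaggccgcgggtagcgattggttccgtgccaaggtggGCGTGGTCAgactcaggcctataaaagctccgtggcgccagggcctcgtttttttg
Gpx3: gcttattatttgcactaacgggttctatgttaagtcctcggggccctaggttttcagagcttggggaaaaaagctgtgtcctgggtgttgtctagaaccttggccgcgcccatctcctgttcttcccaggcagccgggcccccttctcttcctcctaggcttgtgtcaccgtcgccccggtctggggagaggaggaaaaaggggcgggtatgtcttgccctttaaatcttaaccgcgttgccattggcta
The windows searched ran from 250 bases before to 50 bases after the start, on both strands. The extended ERR response element TNAAGGTCA was in 0 of the 10 genes and in 1.43% of 27025 genes (1.28% of 32851 promoter windows). Its core AAGGTCA, which the longer motif contains, was also in 0 of the 10 genes and in 5.38% of genes (4.72% of windows). The antioxidant response element core TGACNNNGC, the element bound by NRF2, was in 2 of the 10 genes and in 13.99% of all genes (12.4% of windows). In Sod1 and Txnrd1 it lay on the strand opposite to the gene, so its reverse complement is what reads on the strand of the gene. That was GCGTGGTCA at bases -56 to -48 from the start in Sod1, and GCTTTGTCA at bases -92 to -84 of 1 of the windows of Txnrd1. The windows of Sod2, Txnrd2 and Sod1 held 64.3%, 67% and 66.7% G and C, against a median of 52.7% over all windows.

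Reads recovered per library ran from 12468001 to 12954186 in ERRαγAd-/- CL316,243, from 12822176 to 13263567 in ERRαγAd-/- PBS, from 8979123 to 9559239 in WT CL316,243 and from 8478310 to 9727167 in WT PBS. The lowest member in any library, Txnrd2, had 444 reads there. On the deposited RPKM scale (reads per kilobase of transcript, scaled to library size) the typical gene was higher in ERRαγAd-/- than in WT libraries by 0.53 (log2) with PBS and by 0.63 with CL316,243, and CL316,243 over PBS moved it by -0.16 in ERRαγAd-/- and by -0.26 in WT. Levels below are therefore RPKM scaled so that the typical gene is level across libraries (median of ratios), and log2 changes are of scaled RPKM plus 0.5, which understates the change of low genes. Each change is relative to the typical gene. Esrra, the gene of ERRα, had 6.70 to 8.71 scaled RPKM in ERRαγAd-/- CL316,243 and 5.26 to 8.90 in ERRαγAd-/- PBS, against 75.6 to 83.2 in WT CL316,243 and 41.7 to 47.0 in WT PBS. Esrrg, the gene of ERRγ, had 6.38 to 8.13 and 2.297 to 4.72 in the same ERRαγAd-/- groups, against 5.62 to 8.14 and 4.41 to 8.27 in the WT groups. No source used here names the deleted exons, so reads over the rest of Esrrg check nothing about its deletion. Brown adipocyte markers were present in every group, although Ucp1, the uncoupling protein, was at 3.27 to 54.5 scaled RPKM over the 6 ERRαγAd-/- libraries, against 316 to 2968 over the 6 WT libraries.

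**Figure D1:**
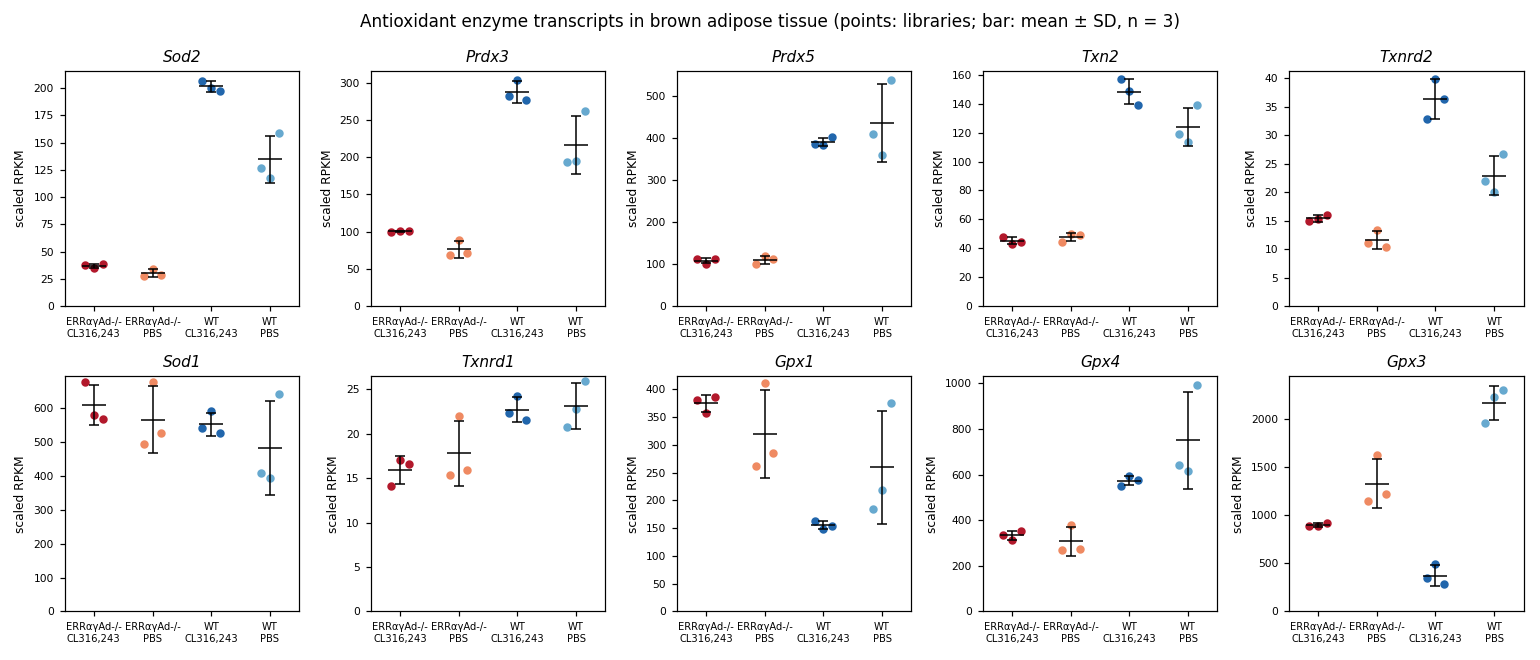
Scaled RPKM (y axes, each from 0) of the 10 genes in each library (points) by genotype and treatment, with mean ± SD of 3 libraries. The 5 genes of the upper row are separated by genotype, while for Gpx3 the 3 WT CL316,243 libraries, at 285 to 489, lie below all the others and the 3 WT PBS libraries, at 1965 to 2306, lie above them.

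RPKM is scaled to gene length, so the levels of the 10 genes can also be ordered within a group. In ERRαγAd-/- CL316,243 the order of the means was Gpx3 (899 scaled RPKM), Sod1 (608), Gpx1 (375), Gpx4 (333), Prdx5 (109), Prdx3 (101), Txn2 (45.2), Sod2 (37.1), Txnrd1 (15.9) and Txnrd2 (15.4). In WT PBS it was Gpx3 (2167), Gpx4 (750.0), Sod1 (481), Prdx5 (435), Gpx1 (259), Prdx3 (216), Sod2 (134), Txn2 (124), Txnrd1 (23.1) and Txnrd2 (22.9). In the WT PBS order the libraries of neighbouring genes overlapped except between Gpx3 and Gpx4, Prdx3 and Sod2, and Txn2 and Txnrd1. Within every WT PBS library, though, Gpx4 was above Sod1, Sod1 above Prdx5 (narrowly in the first), Prdx5 above Gpx1 and Sod2 above Txn2. In the ERRαγAd-/- CL316,243 order the libraries overlapped between Prdx5 and Prdx3 and between Txnrd1 and Txnrd2 and were apart elsewhere. Prdx5 was above Prdx3 within each of these libraries, narrowly in the second.

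The first question was how loss of both receptors changes these transcripts without the agonist. In ERRαγAd-/- PBS against WT PBS, 8 of the 10 genes fell and 0 rose (limma, Benjamini-Hochberg adjusted over 12249 genes), where 34.2% of all tested genes passed, 18.4% lower and 15.8% higher. In 7 of the 10 the libraries of the 2 genotypes did not overlap, as for 45.0% of all genes. The median log2 change of the 10 was -1.11, against 0.0055 over all tested genes. On the deposited scale 6 fell and 2 rose (Sod1 and Gpx1), where 72.5% of genes passed, 6.22% lower and 66.3% higher. With the agonist, ERRαγAd-/- CL316,243 against WT CL316,243, 7 fell and 2 rose (Gpx1 and Gpx3), where 41.5% of genes passed, 21.6% lower and 19.8% higher, and 9 of the 10 did not overlap, as for 54.6% of all genes. The median of the 10 was -0.995, against 0.012 over all genes. On the deposited scale 5 fell and 3 rose with the agonist, where 77.2% of genes passed, 6.62% lower and 70.5% higher. Sod2, Prdx3, Prdx5, Txn2 and Txnrd2 fell under both treatments on both scales. In bulk tissue, less RNA of a gene per cell and fewer cells of the type that makes it cannot be told apart.

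**Figure D2:**
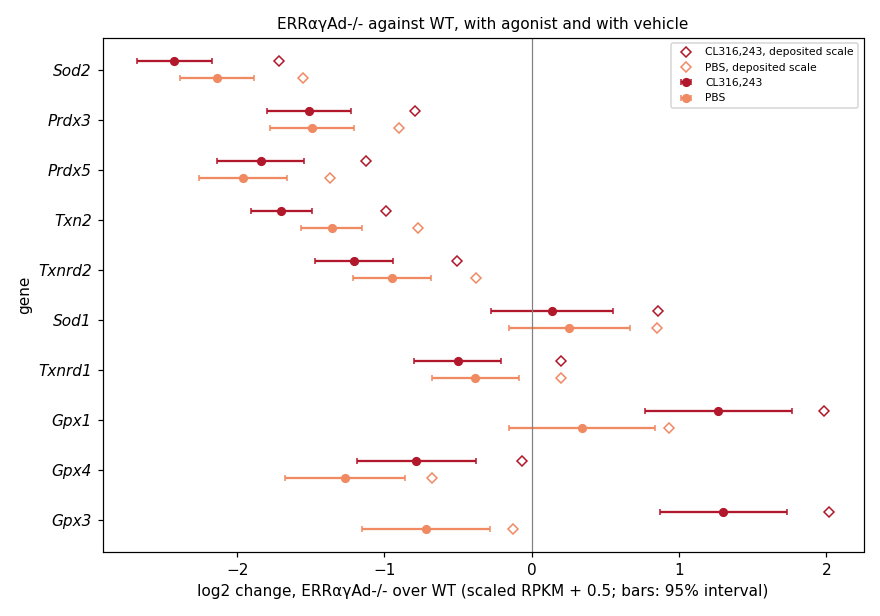
Log2 change of each gene in ERRαγAd-/- over WT, with CL316,243 (dark red) and with PBS (orange); filled points with 95% intervals are from the limma fit on scaled RPKM plus 0.5, and hollow diamonds are the same fit on the deposited scale. The 5 genes at the top lie below 0 throughout, Txnrd1 lies below 0 on the scaled values and at 0.20 on the deposited scale, and Gpx3 lies at 1.30 with CL316,243 and at -0.72 with PBS.

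Sod2, the superoxide dismutase of the mitochondrial matrix, had the largest fall of the 10 genes under both treatments. It lies on chr17:13006846-13040063 (plus strand; gene positions are from GENCODE M21 on GRCm38). Its levels were 37.7, 35.1 and 38.5 scaled RPKM in ERRαγAd-/- CL316,243, against 207, 200.2 and 198 in WT CL316,243. With PBS they were 27.4, 34.2 and 28.6 in ERRαγAd-/-, against 127, 118 and 158 in WT. Every ERRαγAd-/- library was thus below every WT library. The log2 change was -2.43 ± 0.12 (SE) with CL316,243, 5.38-fold lower, with an adjusted p of 1.94e-08 (limma, Benjamini-Hochberg), and -2.14 ± 0.12 with PBS, 4.40-fold lower, with an adjusted p of 7.2e-08. On the deposited scale the changes were -1.71 and -1.55. Stretches of 145 to 193 bases of Sod2 transcripts are at least 95% identical to parts of transcripts of other genes, a small part of its 10008 exon bases.

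The mitochondrial peroxiredoxins fell as well. Prdx3, which removes most hydrogen peroxide of the matrix and lies on chr19:60864051-60874556 (minus strand), was at 99.8, 101 and 101 scaled RPKM in ERRαγAd-/- CL316,243, against 283, 304 and 276 in WT CL316,243. With PBS it was at 68.9, 89.1 and 71.1 in ERRαγAd-/-, against 194, 194 and 262 in WT. The genotypes did not overlap, and the log2 changes were -1.51 ± 0.13 (adjusted p = 2.26e-06) with CL316,243 and -1.49 ± 0.13 (adjusted p = 3.58e-06) with PBS, with an interaction of -0.02 (95% interval -0.42 to 0.38).

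Prdx5, the peroxiredoxin shared by mitochondria, peroxisomes and cytosol, lies on chr19:6906697-6910106 (minus strand). It was at 112, 101 and 113 scaled RPKM in ERRαγAd-/- CL316,243, against 386, 382 and 402 in WT CL316,243. With PBS the levels were 99.7, 119 and 112 in ERRαγAd-/-, against 409, 360 and 538 in WT. The highest ERRαγAd-/- library was below the lowest WT library by a wide margin, and the log2 changes were -1.84 ± 0.14 (adjusted p = 6.07e-07) with CL316,243 and -1.96 ± 0.14 (adjusted p = 5.42e-07) with PBS. Prdx5 is a neighbour of Esrra, which was targeted in these mice: the 2 genes are 870 bases apart on the same strand, and Trmt112, a methyltransferase subunit gene on the opposite strand, lies between and overlaps both. Trmt112 overlaps 19.1% of the exon bases of Prdx5, and without stated strand use the reads of that overlap cannot be told apart. Trmt112 moved the other way: it was at 24.4 to 27.7 scaled RPKM in ERRαγAd-/- CL316,243, against 10.5 to 12.6 in WT CL316,243, and at 19.3 to 23.8 in ERRαγAd-/- PBS, against 10.7 to 14.01 in WT PBS. Its log2 changes were 1.11 ± 0.12 (adjusted p = 1.18e-05) with CL316,243 and 0.76 ± 0.12 (adjusted p = 0.000350) with PBS. The part of the deletion at Esrra itself in the changes of its neighbours was not tested.

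The mitochondrial thioredoxin pair that serves Prdx3 was lower too. Txn2 (chr15:77915047-77929006, minus strand) was at 48.0, 43.0 and 44.7 scaled RPKM in ERRαγAd-/- CL316,243, against 157, 149 and 139 in WT CL316,243, and at 44.7, 49.8 and 48.9 in ERRαγAd-/- PBS, against 119, 114 and 139 in WT PBS. ERRαγAd-/- libraries spanned 43.0 to 49.8 over both treatments, and no WT library was below 114. The log2 changes were -1.70 ± 0.10 (adjusted p = 6.29e-08) with CL316,243 and -1.36 ± 0.10 (adjusted p = 5.73e-07) with PBS, and their difference did not pass the test (interaction -0.34 ± 0.13, adjusted p = 0.195, limma) except without the third WT PBS library (-0.44, adjusted p = 0.0448).

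Txnrd2, the reductase of Txn2 (chr16:18426384-18479073, plus strand), was the least abundant of the mitochondrial members. It was at 14.9, 15.2 and 16.1 scaled RPKM in ERRαγAd-/- CL316,243, against 32.9, 39.8 and 36.3 in WT CL316,243. With PBS it was at 11.0, 13.4 and 10.3 in ERRαγAd-/-, against 22.0, 19.99 and 26.6 in WT. The genotypes did not overlap within either treatment, and the log2 changes were -1.21 ± 0.12 (adjusted p = 8.26e-06) with CL316,243 and -0.95 ± 0.12 (adjusted p = 8.11e-05) with PBS. On the deposited scale they were -0.51 (adjusted p = 0.000991) and -0.38 (adjusted p = 0.00721), a smaller change in each case.

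These falls stood beside falls of other mitochondrial transcripts and of brown adipocyte markers. Of 20 mitochondrial reference genes, 19 fell with CL316,243 (median -1.64) and 19 with PBS (median -1.22), where 21.6% and 18.4% of all genes fell. On the deposited scale 16 fell under each treatment and 1 rose, where 6.62% of all genes fell with CL316,243 and 6.22% with PBS. Sod2 was below both of these medians and Txnrd2 above both. Among them, cytochrome c (Cycs) changed by -3.91 with CL316,243 and -3.53 with PBS, the complex III core subunit Uqcrc1 by -3.05 and -2.73, and the outer membrane channel Vdac2 by -1.72 and -1.47. The summed level of 8 brown adipocyte markers was 1191 to 1515 scaled RPKM in ERRαγAd-/- CL316,243, against 7125 to 9160 in WT CL316,243, and 387 to 685 in ERRαγAd-/- PBS, against 2871 to 4896 in WT PBS. Gene by gene, 6 of the 8 fell with CL316,243 and 5 with PBS, and 0 rose. On the deposited scale the same numbers fell and 1 rose under each treatment. The sum of 6 general adipocyte markers went the other way with CL316,243, at 20311 to 20507 in ERRαγAd-/- against 16636 to 17704 in WT, and overlapped with PBS, at 11620 to 15792 in ERRαγAd-/- against 10297 to 15415 in WT. Singly, 4 of these 6 rose with CL316,243 and 3 with PBS, and 0 fell, where 19.8% and 15.8% of all genes rose. On the deposited scale all 6 rose under each treatment, where 70.5% of all genes rose with CL316,243 and 66.3% with PBS. The 8 skeletal muscle markers, transcripts of a tissue next to the depot, summed to 74.1 to 2242 over the 6 ERRαγAd-/- libraries and 1.46 to 277 over the 6 WT libraries, and were highest in the third library of each ERRαγAd-/- group. Without those 2 libraries Sod2, Prdx3, Prdx5, Txn2 and Txnrd2 fell in both treatments as before. That fit lost the PBS genotype calls of Gpx3 and Txnrd1 (adjusted p = 0.0733 and 0.171, limma). It also lost the WT agonist calls of Prdx3 and Gpx1 (adjusted p = 0.0546 and 0.0665, limma). The ERRαγAd-/- libraries it kept still reached a muscle marker sum of 552. No marker of these 3 lists was at 0 in all libraries, and the part of cell makeup in the falls was not tested.

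Of the cytosolic members, Sod1 did not fall with its mitochondrial counterpart, while Txnrd1 fell on scaled RPKM by less than Txnrd2. Sod1 (chr16:90220754-90226329, plus strand) was at 675, 580 and 568 scaled RPKM in ERRαγAd-/- CL316,243, against 540, 590 and 525 in WT CL316,243. With PBS it was at 492, 677 and 526 in ERRαγAd-/-, against 409, 393 and 642 in WT. The genotypes overlapped under both treatments, and neither the change of 0.14 with CL316,243 (95% interval -0.28 to 0.55, adjusted p = 0.601) nor that of 0.25 with PBS (95% interval -0.16 to 0.67, adjusted p = 0.323) passed the limma test. On the deposited scale both changes were 0.85 and passed (adjusted p = 0.000505 and 0.000654), set against the shifts of the typical gene of 0.63 and 0.53. After quantile normalization, which levels the libraries in another way, they were 0.92 with CL316,243 and 0.81 with PBS and passed too (adjusted p = 2.82e-05 and 9.84e-05). The third WT PBS library, at 642, stood above its group, and without it the change with PBS was 0.48 (adjusted p = 0.0233). A processed pseudogene, Gm8566, is 97.8% identical to Sod1 over 465 bases, so its reads may have been split.

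Txnrd1, the cytosolic thioredoxin reductase (chr10:82833951-82897712, plus strand), is the one gene of the 10 whose difference between genotypes turned sign on the deposited scale. It was at 14.1, 17.04 and 16.5 scaled RPKM in ERRαγAd-/- CL316,243, against 22.3, 24.3 and 21.5 in WT CL316,243. With PBS it was at 15.4, 22.0 and 15.9 in ERRαγAd-/-, against 20.7, 22.7 and 25.9 in WT, and here the second ERRαγAd-/- library reached into the WT range. The log2 change was -0.50 ± 0.14 (adjusted p = 0.0104) with CL316,243 and -0.38 ± 0.14 (adjusted p = 0.0461) with PBS, against 0.20 (adjusted p = 0.147) and 0.20 (adjusted p = 0.151) on the deposited scale. The PBS call was lost in 16 of 26 alternatives, among them edgeR on recovered reads (adjusted p = 0.0655) and the fits without the second or the third WT PBS library (adjusted p = 0.0856 and 0.14) or without the first or the third ERRαγAd-/- PBS library (adjusted p = 0.161 and 0.146), and those without any 1 WT CL316,243 library or without the second or the third ERRαγAd-/- CL316,243 library (adjusted p from 0.0522 to 0.0603).

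Gpx1 and Gpx4, the intracellular glutathione peroxidases, differed in opposite directions between ERRαγAd-/- and WT under the agonist, though the fall of Gpx4 did not pass on the deposited scale or after quantile normalization. Gpx1 (chr9:108338903-108340343, plus strand) was at 380.2, 357 and 387 scaled RPKM in ERRαγAd-/- CL316,243, against 163, 149 and 154 in WT CL316,243. Under PBS it was at 263, 411 and 286 in ERRαγAd-/-, against 185, 218 and 375 in WT. The genotypes were apart with the agonist and overlapped without it. Gpx1 rose by 1.27 ± 0.23 with CL316,243 (2.41-fold, adjusted p = 0.000823), while its change of 0.34 with PBS (95% interval -0.16 to 0.84) did not pass (adjusted p = 0.271). Without the third WT PBS library, the highest of its group, the PBS change was 0.64 and passed (adjusted p = 0.0116). It also passed after quantile normalization (0.92, adjusted p = 0.000527) and on the deposited scale (0.93, adjusted p = 0.00131). The difference between the 2 genotype effects did not pass in the limma fit (interaction 0.93 ± 0.32, adjusted p = 0.142, limma), and it passed with DESeq2 on recovered reads (0.97, adjusted p = 0.0442) and after quantile normalization (0.92, adjusted p = 0.0343).

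Gpx4, the enzyme of lipid hydroperoxides (chr10:80047166-80056439, plus strand), was at 334, 312 and 354 scaled RPKM in ERRαγAd-/- CL316,243, against 551, 592 and 577 in WT CL316,243. In the vehicle groups it was at 269, 379 and 273 in ERRαγAd-/-, against 641, 614 and 995 in WT. All ERRαγAd-/- libraries were below all WT libraries, and the third WT PBS library was the highest of all 12. The log2 change was -0.78 ± 0.19 (adjusted p = 0.00509) with CL316,243 and -1.27 ± 0.19 (adjusted p = 0.000235) with PBS. With RPKM as deposited, the fall with PBS was -0.68 (adjusted p = 0.00238), and that with CL316,243 was -0.07 and did not pass (adjusted p = 0.711). After quantile normalization the fall with CL316,243 did not pass either (adjusted p = 0.753), and the interaction, 0.49 in the fit on scaled RPKM (adjusted p = 0.355), was 0.76 and passed (adjusted p = 0.0133, limma). Gpx4 shares 733 bases at 99.7% identity with Gpx4-ps2 and 510 bases at 95.1% with a processed pseudogene, so its level is uncertain by the reads that counting could have split.

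Gpx3, the secreted plasma enzyme (chr11:54902453-54910377, plus strand), was the most abundant of the 10 genes in 3 of the 4 groups. It was at 888, 890.4 and 920 scaled RPKM in ERRαγAd-/- CL316,243, against 349, 489 and 285 in WT CL316,243. Given PBS, it was at 1146, 1624 and 1222 in ERRαγAd-/-, against 1965, 2230 and 2306 in WT. The ERRαγAd-/- libraries were thus all above WT with the agonist and all below WT without it. The log2 change was 1.30 ± 0.20 (2.46-fold higher, adjusted p = 0.000236) with CL316,243 and -0.72 ± 0.20 (1.64-fold lower, adjusted p = 0.0150) with PBS. The test of the difference itself, the interaction of genotype and agonist, gave 2.02 ± 0.28 (adjusted p = 0.00296, limma), and Gpx3 was the only one of the 10 genes called for it, where 3.89% of all genes passed, 1.88% upward and 2.02% downward. On the deposited scale, where 5.14% passed, the interaction was 2.14 (adjusted p = 0.00116), the change with CL316,243 was 2.02 and that with PBS was -0.12 and did not pass (adjusted p = 0.547). The PBS call was also lost without the first ERRαγAd-/- PBS library (adjusted p = 0.0563), without the third (adjusted p = 0.0525) and in the fit of the 2 PBS groups alone (adjusted p = 0.0674). Leaving out the third library of both ERRαγAd-/- groups lost it too (adjusted p = 0.0733, limma).

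The second question was how the agonist changes these transcripts in each genotype. In WT, CL316,243 against PBS, 3 of the 10 genes rose (Sod2, Prdx3 and Txnrd2) and 2 fell (Gpx1 and Gpx3), where 30.5% of all tested genes passed, 17.9% higher and 12.6% lower. The median log2 change of the 10 was 0.10, against 0.012 over all genes. With RPKM as deposited, 2 rose (Sod2 and Txnrd2) and 5 fell, where 45.3% of genes passed, 7.2% higher and 38.1% lower. In ERRαγAd-/-, 0 of the 10 passed with limma, where 10.3% of all genes did, 6.68% higher and 3.62% lower. Sod2, Prdx3, Txnrd2 and Gpx3 had an unadjusted limma p under 0.05. With edgeR on recovered reads 0 of the 10 passed, where 9.84% of all genes did. DESeq2 on recovered reads called Prdx3, Txnrd2 and Gpx3 (adjusted p = 0.0302, 0.0283 and 0.0197), and the share of all genes it called is not given here. With RPKM as deposited, Txn2 and Gpx3 fell in ERRαγAd-/- (adjusted p = 0.0448 and 0.0184), where 16.9% of genes passed, 13.7% lower. The comparisons between genotypes and those between treatments share libraries, so their values are given side by side and not as independent evidence of each other.

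**Figure D3:**
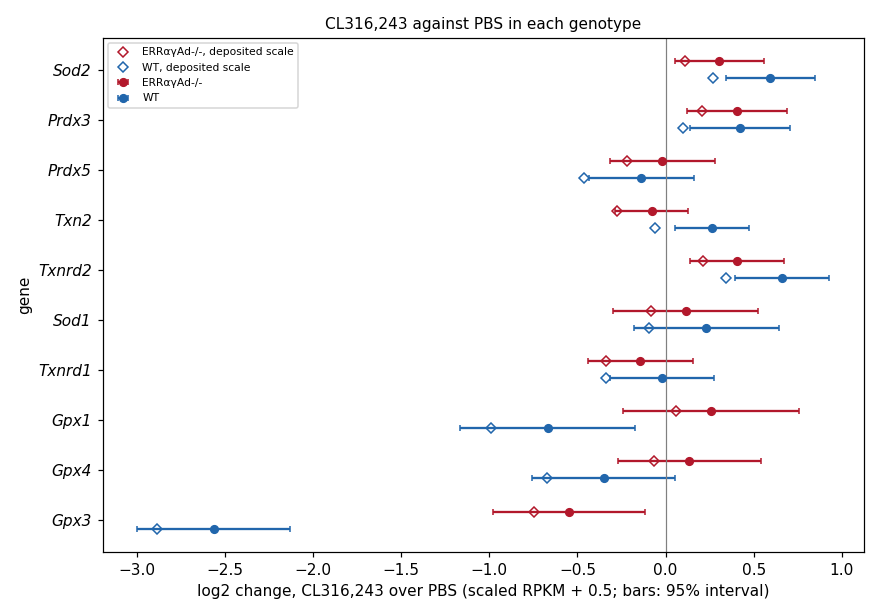
Log2 change of each gene with CL316,243 over PBS in ERRαγAd-/- (red) and WT (blue), with 95% intervals from the limma fit on scaled RPKM plus 0.5 as filled points and the deposited scale as hollow diamonds. Gpx3 lies at -0.55 in ERRαγAd-/- and at -2.57 in WT, and Sod2, Prdx3 and Txnrd2 lie above 0 in both genotypes on either scale.

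Among the mitochondrial members, Sod2 rose in WT to a mean of 202 ± 4.75 scaled RPKM with CL316,243, against 134 ± 21.3 with PBS (SD, n = 3 each), a log2 change of 0.59 ± 0.12 (adjusted p = 0.00264). Txnrd2 rose to 36.3 ± 3.46 with CL316,243, against 22.9 ± 3.41 with PBS, by 0.66 ± 0.12 (adjusted p = 0.00187). Prdx3 rose to 288 ± 14.5, against 216 ± 39.0, by 0.42 ± 0.13 (adjusted p = 0.0288), but this call was lost in 8 of 26 alternatives, which included the deposited scale (0.10, adjusted p = 0.474) and the fits without the first or the second WT PBS library or without any 1 of the 3 WT CL316,243 libraries (adjusted p from 0.054 to 0.106). The groups of Sod2, Prdx3 and Txnrd2 did not overlap in WT, and those of Txn2 (0.26 ± 0.10, adjusted p = 0.055) did not overlap either, at 139 to 157 with CL316,243 against 114 to 139 with PBS, where 43.0% of all genes did not overlap. Without the third WT PBS library the change of Txn2 was 0.35 and passed (adjusted p = 0.00934). Prdx5 stood apart from the other 4, at 390.2 ± 10.3 with CL316,243 against 435 ± 92.0 with PBS in WT (-0.14, 95% interval -0.44 to 0.16), and it fell on the deposited scale (-0.46, adjusted p = 0.00775) and after quantile normalization (-0.37, adjusted p = 0.00162). Over the same comparison 15 of the 20 mitochondrial reference genes rose and 0 fell, with a median of 0.63, where 17.9% of all genes rose and 12.6% fell. Of these reference genes, the complex III core subunit Uqcrc2 rose by 1.04.

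In ERRαγAd-/- every CL316,243 library was above every PBS library for the same 3 genes, where 31.8% of all genes did not overlap. Sod2 averaged 37.1 ± 1.77 scaled RPKM with CL316,243 and 30.1 ± 3.63 with PBS (log2 change 0.30 ± 0.12, adjusted p = 0.122). Prdx3 averaged 101 ± 0.729 with CL316,243 and 76.4 ± 11.1 with PBS (0.40 ± 0.13, adjusted p = 0.0724). Txnrd2 averaged 15.4 ± 0.613 with CL316,243 and 11.6 ± 1.59 with PBS (0.40 ± 0.12, adjusted p = 0.0562). All 3 missed the threshold in the limma fit of all libraries and passed it without the third WT PBS library (adjusted p = 0.0454, 0.0208 and 0.029). Prdx3 and Txnrd2 also passed without the second ERRαγAd-/- PBS library (adjusted p = 0.034 and 0.0294). In none of the 3 did the response differ between genotypes beyond its error: the interactions were -0.29 (95% interval -0.65 to 0.07) for Sod2, -0.02 (-0.42 to 0.38) for Prdx3 and -0.26 (-0.63 to 0.12) for Txnrd2. These intervals include no difference as well as a smaller or a larger response in ERRαγAd-/-.

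Of the glutathione peroxidases, Gpx3 had the largest agonist response. In WT it fell to 374 ± 104 scaled RPKM with CL316,243, against 2167 ± 179 with PBS, a log2 change of -2.57 ± 0.20 (5.92-fold lower, adjusted p = 7.24e-06). In ERRαγAd-/- it was at 899 ± 17.6 with CL316,243, against 1331 ± 257 with PBS, a change of -0.55 ± 0.20 that did not pass (adjusted p = 0.106), although every CL316,243 library was below every PBS library. Gpx1 fell in WT with a change of -0.67 ± 0.23 (adjusted p = 0.0438), at 156 ± 7.28 with CL316,243 against 259 ± 102 with PBS, and this call was lost in 13 of 26 alternatives, among them the fits without the second or the third WT PBS library, the third ERRαγAd-/- PBS library or any 1 CL316,243 library of either genotype (adjusted p from 0.0509 to 0.112), with the smallest change, -0.37, without the third WT PBS library. In ERRαγAd-/- Gpx1 changed by 0.26 (95% interval -0.24 to 0.75). Gpx4 passed in neither genotype (-0.35 in WT, adjusted p = 0.176; 0.13 in ERRαγAd-/-, adjusted p = 0.72), and it fell in WT on the deposited scale (-0.68, adjusted p = 0.00537) and after quantile normalization (-0.72, adjusted p = 0.000372).

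Transcripts of blood and immune cells moved with the agonist as well. All 7 red cell markers fell in WT, with sums of 223 to 701 scaled RPKM with CL316,243 against 940.1 to 1041 with PBS, and 0 of 7 passed in ERRαγAd-/-, at 470.4 to 632 against 712 to 983. All 6 measured macrophage markers fell in WT, at 50.5 to 66.7 with CL316,243 against 89.5 to 163 with PBS, and 2 of 6 fell in ERRαγAd-/-, at 62.5 to 73.8 against 128 to 135. Of 4 fibroblast markers, 2 fell in WT, at 149 to 159 against 159 to 233, and 0 in ERRαγAd-/-, at 211 to 295 against 238 to 292. Among all tested genes, 12.6% fell with the agonist in WT and 3.62% in ERRαγAd-/-. No red cell, macrophage or fibroblast marker was at 0 in all libraries. Within WT PBS, the third library was the highest of its group on scaled RPKM for every member, the mitochondrial members included. Its adipocyte marker sum was 15415, against 10297 and 10622 in the other libraries of that group. Within ERRαγAd-/- PBS, the second library was likewise the highest for every member, and its sum was 15792, against 11620 and 13219. The part of these cell types in the changes of the members, among them Gpx1, Gpx3, Gpx4 and Sod1, was not tested.

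Sod1 and Txnrd1 did not pass with the agonist in either genotype. Sod1 changed by 0.11 in ERRαγAd-/- (95% interval -0.30 to 0.53) and by 0.23 in WT (-0.18 to 0.64), values that turned to -0.09 and -0.09 on the deposited scale. Without the third WT PBS library the WT change of Sod1 was 0.46 and passed (adjusted p = 0.0307). Txnrd1 changed by -0.14 in ERRαγAd-/- (-0.44 to 0.15) and by -0.02 in WT (-0.32 to 0.27), and on the deposited scale it changed in WT by -0.34 (adjusted p = 0.0358).

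Ratios within a library do not depend on how libraries are scaled, apart from the 0.5 added before taking logs, so 4 mitochondrial genes were each divided by their cytosolic counterpart. Sod2 over Sod1 was 0.0557, 0.0606 and 0.0678 in ERRαγAd-/- CL316,243, against 0.383, 0.339 and 0.376 in WT CL316,243. Without agonist it was 0.0557, 0.0505 and 0.0543 in ERRαγAd-/-, against 0.311, 0.300 and 0.247 in WT. All 6 ERRαγAd-/- libraries were below all 6 WT libraries, with a mean log2 difference of -2.48 within treatments. Txn2 over Txn1, the cytosolic thioredoxin, was 0.403 to 0.426 in ERRαγAd-/- CL316,243 and 0.357 to 0.423 in ERRαγAd-/- PBS, against 1.56 to 1.93 in WT CL316,243 and 0.835 to 1.25 in WT PBS, a difference of -1.69. WT tissue given the agonist thus had more Txn2 than Txn1 RNA per length, and ERRαγAd-/- tissue had less Txn2 than Txn1 under both treatments. Prdx3 over Prdx1, the cytosolic peroxiredoxin, was 0.573 to 0.608 and 0.476 to 0.551 in the same ERRαγAd-/- groups, against 1.05 to 1.09 and 0.857 to 1.05 in the WT groups, a difference of -0.86. Prdx1 was itself lower in ERRαγAd-/-, at a mean of 169 scaled RPKM against 267 with CL316,243 and 149 against 234 with PBS. Its genotypes did not overlap on scaled RPKM under either treatment, and overlapped on the deposited scale. Txnrd2 over Txnrd1 was 0.892 to 1.06 and 0.606 to 0.716 in ERRαγAd-/-, against 1.48 to 1.69 and 0.880 to 1.06 in WT, a difference of -0.64. Each of the 4 genotype differences had an exact two-sided permutation p of 0.005, the smallest that 400 relabellings within treatments can give, and 0.00667 after Benjamini-Hochberg adjustment over the 8 ratio comparisons.

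**Figure D4:**
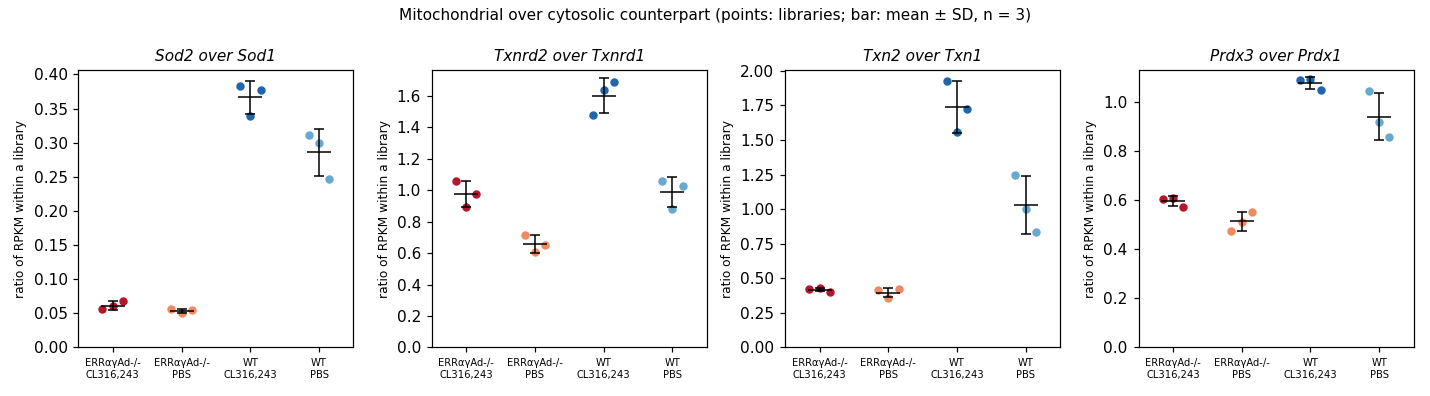
Ratio of each mitochondrial transcript to its cytosolic counterpart within a library (y axes from 0, ratio of RPKM), by genotype and treatment, with mean ± SD of 3 libraries. For Sod2 over Sod1 the ERRαγAd-/- libraries sit at 0.0505 to 0.0678 and the WT libraries at 0.247 to 0.383.

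The same ratios were higher with the agonist. Txnrd2 over Txnrd1 was higher with CL316,243 than with PBS by 0.55 (log2) in ERRαγAd-/- and by 0.68 in WT, a mean difference of 0.62 (exact permutation p = 0.005 within genotypes, adjusted 0.00667). Prdx3 over Prdx1 was higher by 0.22 in ERRαγAd-/- and 0.20 in WT (p = 0.005, exact permutation, adjusted 0.00667). Sod2 over Sod1 was higher by 0.19 in ERRαγAd-/- and 0.36 in WT (exact permutation p = 0.01, adjusted 0.0114). Txn2 over Txn1 was higher by 0.08 in ERRαγAd-/- and by 0.77 in WT (exact permutation p = 0.03, adjusted 0.03), and this last call was lost without the first (adjusted p = 0.065, exact permutation) or the third WT CL316,243 library or the second ERRαγAd-/- PBS library (each 0.05). In WT, Txn1 averaged 85.8 ± 8.28 scaled RPKM with CL316,243 and 125 ± 36.9 with PBS, with overlapping libraries. Txn2 changed there by 0.26 and did not pass (adjusted p = 0.055, limma), so the ratio is not a rise of Txn2 alone. Whether the agonist effect on a ratio differed between genotypes was not tested.

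Other genes of the same pathways went in both directions. Of 24 other peroxide and thioredoxin genes tested, 5 rose and 9 fell with CL316,243 (median -0.10) and 6 rose and 9 fell with PBS (median -0.16) in ERRαγAd-/- against WT. Of all tested genes 19.8% rose and 21.6% fell with CL316,243, and 15.8% rose and 18.4% fell with PBS. With RPKM as deposited, 15 rose and 3 fell with CL316,243, where 70.5% of all genes rose and 6.62% fell. With PBS 14 rose and 5 fell on that scale, where 66.3% of all genes rose and 6.22% fell. Prdx2, a peroxiredoxin abundant in red cells, changed by -0.84 with CL316,243 and -1.26 with PBS. Its change with CL316,243 was -0.13 on the deposited scale and did not pass (adjusted p = 0.174, limma). Msrb2, a mitochondrial methionine sulfoxide reductase, was at 11.7 ± 0.769 scaled RPKM in ERRαγAd-/- CL316,243, against 44.9 ± 1.49 in WT CL316,243 (-1.90), and changed by -1.48 with PBS. Srxn1, the sulfiredoxin that repairs overoxidised peroxiredoxins, changed by -1.36 and -0.97, while Msrb3, a methionine sulfoxide reductase, rose by 0.80 with CL316,243. Catalase (Cat), the peroxisomal enzyme, rose with the agonist in both genotypes, to 323 ± 30.7 with CL316,243 against 188 ± 3.54 with PBS in ERRαγAd-/- (0.78, adjusted p = 0.000953) and to 287 ± 15.4 against 148 ± 11.8 in WT (0.96, adjusted p = 5.18e-05).

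Genes of glutathione and NADPH supply, the source of reducing power for these enzymes, were also mixed. Of 21 tested, 5 rose and 9 fell with CL316,243 (median -0.05) and 7 rose and 6 fell with PBS (median -0.0037). Over all tested genes the shares were 19.8% higher and 21.6% lower with CL316,243, and 15.8% higher and 18.4% lower with PBS. On the deposited scale 10 rose and 4 fell with CL316,243, where 70.5% of all genes rose and 6.62% fell. With PBS 14 rose and 3 fell there, where 66.3% of all genes rose and 6.22% fell. Among the genes named by their smallest p, Me3, Idh2 and Slc25a39 of the mitochondrial supply fell under both treatments. The genotype changes of other mitochondrial genes of the list, such as Nnt, are not given here. Me3, a mitochondrial NADP-dependent malic enzyme, was at 0.307 ± 0.171 scaled RPKM in ERRαγAd-/- CL316,243, against 8.04 ± 1.51 in WT CL316,243, and at 0.434 ± 0.441 in ERRαγAd-/- PBS, against 13.4 ± 0.874 in WT PBS (log2 changes -3.41 and -3.99, which understate the difference because the added 0.5 is larger than the ERRαγAd-/- means). Idh2, the mitochondrial NADP-dependent isocitrate dehydrogenase, changed by -1.30 and -1.53, and Slc25a39, the carrier that brings glutathione into mitochondria, by -1.19 and -0.86. In the cytosol, Pgd of the pentose phosphate pathway changed by -1.66 with CL316,243 and glutathione reductase (Gsr) rose by 0.71 with PBS. Idh1, the cytosolic isocitrate dehydrogenase, rose with the agonist in both genotypes, by 0.62 in ERRαγAd-/- and 0.86 in WT.

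NRF2 is the transcription factor that induces many cytosolic antioxidant genes. Of 19 tested genes of NRF2 and its textbook targets, a list that includes Txnrd1, 4 rose and 5 fell with CL316,243 (median 0.04) and 3 rose and 4 fell with PBS (median 0.010) in ERRαγAd-/- against WT. Beside this, 19.8% of all tested genes rose and 21.6% fell with CL316,243, and 15.8% rose and 18.4% fell with PBS. On the deposited scale 15 rose and 1 fell with CL316,243, and 11 rose and 2 fell with PBS. Of all tested genes on that scale, 70.5% rose and 6.62% fell with CL316,243, and 66.3% rose and 6.22% fell with PBS. Gstm1, a glutathione transferase, rose by 1.33 and the quinone reductase Nqo1 by 0.97 with CL316,243, and both fell with the agonist in WT, by -1.01 and -1.09. Cbr3, a carbonyl reductase, changed by -0.75 with CL316,243 and -1.48 with PBS. On the deposited scale its change with CL316,243 was -0.096 and did not pass (adjusted p = 0.649, limma). The ferritin heavy chain Fth1 changed by -0.52 with PBS and was at 0.08 on the deposited scale. Among 21 genes of selenoprotein synthesis and other selenoproteins, which share selenocysteine with 5 of the 10 members, 3 rose and 5 fell under each treatment. The shares of all genes on scaled RPKM are those given for the NRF2 list. On the deposited scale 18 rose and 3 fell with CL316,243 and 15 rose and 2 fell with PBS, beside the shares of all genes given above for that scale. Pstk, the kinase that primes selenocysteine synthesis on its tRNA, changed by -1.84 with CL316,243 and -1.61 with PBS, and Sephs2, the selenophosphate synthetase, by -1.02 and -0.84. The fall of Sephs2 with PBS did not pass on the deposited scale (-0.25, adjusted p = 0.0519, limma). The selenoprotein gene Dio2 fell as well, by -1.61 and -1.64, while the selenoprotein gene Sepn1 rose by 0.72 with CL316,243 and 0.64 with PBS. Dio2 was low, at 0.246 ± 0.0469 scaled RPKM in ERRαγAd-/- PBS against 2.02 ± 1.22 in WT PBS. With CL316,243 it was at 2.82 ± 1.22 in ERRαγAd-/- against 9.44 ± 3.15 in WT. The added 0.5 is larger than its ERRαγAd-/- PBS mean, so its change with PBS is understated. With the agonist, Sephs2 rose by 0.76 in ERRαγAd-/- and 0.93 in WT.

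For each member the 3 tested genes with the most similar profile over the 12 libraries were found by the root mean square distance between log2 profiles, each centred on its own mean. The nearest to Sod2 were Ndufs3, a subunit of respiratory complex I (distance 0.0595), Cox8a, a subunit of complex IV (0.0829), and Bola3, an iron-sulfur cluster factor (0.0844). Ndufs3 changed by -2.37 with CL316,243 and -2.09 with PBS, against -2.43 and -2.14 for Sod2. Nearest to Prdx3 were the ATP synthase gene Atp5c1 (0.0703), Hdhd2 (0.104) and the complex I gene Ndufc2 (0.104), and nearest to Txn2 were Vdac2 (0.0801), Chchd7 (0.0827) and the mitochondrial ribosomal gene Mrpl18 (0.109). Txnrd2 was nearest to Slc30a9 (0.0939), the mitochondrial fusion gene Opa1 (0.0952) and Uxt (0.106), and Prdx5 to Qrsl1 (0.157), Csrp2 (0.161) and Tomm40l (0.173). Gpx1 was nearest to the adipocyte hormone gene Adipoq (0.149), Npc2 (0.154) and Pla2g16 (0.163), and Gpx4 to Prdx2 (0.125), Guk1 (0.136) and Cd59b (0.157). Sod1 was nearest to Btd (0.0992), Pomp (0.105) and Umad1 (0.117), and Txnrd1 to Vps28 (0.122), Ptp4a2 (0.124) and Anp32a (0.125). The profile of Gpx3 had no close neighbour: its nearest gene, Strip2, was at a distance of 0.335, above the third-nearest distance of every other member. These distances describe 12 libraries in 4 groups and carry no test.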

How the data were processed

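Brown adipose tissue RNA of 12 mouse samples was sequenced, and the samples were put in 4 groups of 3 by their labels. Per the labels' protocols, 1 µg of total RNA entered each TruSeq library. The submitters' processing notes name STAR 2.3.0, cutadapt, edgeR and bcl2fastq 2.16.0.10, and the builds mm9 and mm10 with no role. No label or header states the counting, its annotation or its use of strand. The authors deposited RPKM values (reads scaled to gene length and library size) of 24452 genes, 6296 of them at 0 in every library. A second table deposited by the authors holds a linear signal for 12380 genes, whose values were whole multiples of 1 read in 100% of cases within a tolerance of 0.01. Reads were recovered from it, and 9 stray cells in 4 columns beside it were not used. No 2 libraries held identical values.

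RPKM was scaled by median of ratios and tested with limma 3.58.1 in R 4.3.3, with an empirical Bayes variance trend, after adding 0.5 and taking log2, for 12249 genes with a mean of at least 0.5 RPKM, in a single fit of the 4 groups with 8 residual degrees of freedom. Benjamini-Hochberg adjustment was made separately for 5 comparisons, and a gene passed at an adjusted p under 0.05. Ratios were tested by exact two-sided permutation. Alternatives were the deposited scale, quantile normalization, pseudocounts of 0.1 and 1, other filters, no variance trend, only the groups compared, edgeR 4.0.16 and DESeq2 1.42.0 on recovered reads, a replicate block, and libraries left out. A fit without the third WT PBS and second ERRαγAd-/- PBS libraries was added after seeing the data. The fitting steps were tested on simulated data.

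The 10 genes and all gene lists were chosen with earlier results of these data known. Genes of a list are named by the smallest unadjusted p, up to 4 per genotype comparison and 2 per agonist comparison, and the most alike genes by distance. Same-numbered libraries are not stated to share an animal, litter or day, and their deviations from group means correlated over 0.1 in 7 of 18 pairs, so numbers were not taken as pairing samples. Precision is limited by 3 libraries a group, and by depth only for low genes.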

Additional observations from a re-analysis of the deposited data

Results flagged for a closer look

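Gpx3 is listed because the genotype effect differed between the treatments, with every library of each group on the side of its group. In ERRαγAd-/- against WT its log2 change was 1.30 with CL316,243 and -0.72 with PBS, and the test of the difference gave 2.02 (adjusted p = 0.00296, limma with Benjamini-Hochberg adjustment). The PBS change did not pass on the deposited scale, while the interaction passed in all 25 alternatives run for it.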

How the results depend on the processing

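Of 50 results for single genes, 23 passed in the limma fit on scaled RPKM, 17 of these passed with the same sign in all 26 alternatives (25 for the interaction), and 21 kept their sign in all. The exceptions in sign were both genotype changes of Txnrd1, each 0.20 on the deposited scale. That scale also turned Sod1 (-0.085) and Gpx4 (-0.065) with the agonist in ERRαγAd-/-, Sod1 (-0.092) and Txn2 (-0.059) in WT, and the interactions of Sod1 (0.0071) and Prdx3 (0.11), none called on scaled RPKM. It called 9451 genes for genotype with CL316,243, 8877 with PBS and 2068 for the agonist in ERRαγAd-/-, there with 2 of the 10 genes. Quantile normalization turned Sod1 with the agonist (-0.0033 in ERRαγAd-/-, -0.12 in WT) and in the interaction (0.11). It called 3 of the 10 genes for the interaction, where 544 of all 12249 genes passed. DESeq2 called 823 genes and 2 of the 10 for the interaction, and it called Prdx3, Txnrd2 and Gpx3 for the agonist in ERRαγAd-/-. Fitting only the groups compared left 3 of the 10 called for the agonist in WT, as did leaving out the third library of both ERRαγAd-/- groups, which gave 470 genes for the agonist in ERRαγAd-/- and 216 for the interaction. The shares of all genes that these fits called for the agonist in WT are not given here.

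Without the third WT PBS and second ERRαγAd-/- PBS libraries, a fit chosen after seeing the data, 4 of the 10 genes were called for the agonist in ERRαγAd-/- and 2 for the interaction. For the interaction 744 of all genes passed in that fit, and the share of all genes it called for the agonist in ERRαγAd-/- is not given here. The agonist changes of Prdx5 (0.032 in ERRαγAd-/-, 0.026 in WT) and Txnrd1 (0.013 and 0.062) turned sign there.

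Leaving out 1 library at a time gave 526 to 1640 genes and 0 to 3 of the 10 for the agonist in ERRαγAd-/-, the lowest without ERRαγAd-/- PBS library 1 and the highest without WT PBS library 3. For the interaction it gave 225 to 830 genes, the lowest without WT CL316,243 library 3 and the highest without WT PBS library 3, and 1 to 2 of the 10. For the agonist in WT 3 to 6 of the 10 were called, 3 without WT PBS library 2 or any 1 WT CL316,243 library. Changes that crossed 0 in these fits, none of them called, were Prdx5 with the agonist (-0.090 to 0.037 in ERRαγAd-/-, -0.27 to 0.027 in WT), Txnrd1 (-0.23 to 0.019 and -0.097 to 0.063), and the interactions of Sod1 (-0.35 to 0.023), Prdx3 (-0.17 to 0.10), Prdx5 (-0.052 to 0.24) and Txnrd1 (-0.21 to 0.044). The agonist effect on Txn2 over Txn1 ran from 0.35 to 0.50, with an adjusted exact permutation p of up to 0.065.

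With the replicate number as a block, although the numbers do not pair the samples, Gpx1 with the agonist in WT kept its change of -0.67 and its adjusted limma p was 0.052, and the ratios Sod2 over Sod1 (0.28) and Txn2 over Txn1 (0.42) with the agonist no longer passed (adjusted exact permutation p = 0.0714 and 0.0938). The cause of each of these changes was not tested.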
